A study of Mus musculus with 25 samples.

Results

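ATAC-seq measures how accessible chromatin is by letting a transposase cut open DNA and counting the fragments that map to each region. The regions described here are the 558 low-GC promoter peaks among the 13527 accessible regions (peaks) of CD8+ T cells. They are the peaks whose midpoint lay within 1000 bp of the annotated start of a protein-coding transcript and whose bases, over the whole interval, were less than 50% G or C. They were 558 of 7670 promoter peaks, against 7112 other promoter peaks, and a further 3755 peaks of low GC content lay farther from any such start. Most mammalian promoters lie in CpG islands, which are rich in G and C and tend to be open in many cell types. Promoters that are poor in CpG more often carry a TATA box and serve genes used by particular cell types or after a stimulus, such as cytokine genes. In CD8+ T cells many effector genes, among them those for granzymes, interferon gamma and chemokines, are of this kind.

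The cells were T_FGS, CD8+ T cells of adult female C57BL/6 mice that bound a tetramer of the ovalbumin peptide on Kb and so recognised an antigen carried by the fetus and the graft. The antigen came from the 2W-OVA.BALB/c strain, which was the donor of skin grafts and the sire of pregnancies, and all cells were sorted from spleen and pooled lymph nodes of individual mice. Naive cells (3 libraries) came from mice with neither exposure, and Sensitized cells (4 libraries) from mice that had received a skin graft at least a month earlier. N+P cells came from naive mice shortly after delivery, sorted as C1 (PD1-, 3 libraries) and C5 (PD1+CD73+, 3 libraries). S+P cells came from sensitized mice shortly after delivery, sorted as C4 (PD1-), C5 (PD1+CD73+) and C7 (PD1+CD73-), with 4 libraries each. Naive and Sensitized cells were not divided by PD1 and CD73, so the gate and the exposure cannot be told apart where an S+P or N+P population is set against them. All values are for sorted bulk cells, in which a larger share of cells with an open promoter and a wider opening per cell cannot be told apart.

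The 25 libraries held 2430890 to 25419715 counts in peaks, and a low-GC promoter peak had a median of 170.5 to 1792 counts per library. S+P C4 replicate 1 was the shallowest library. The Sensitized group was not uniform at these peaks. In replicates 1 and 2 many of the peaks described here had moved further from the Naive level than in replicates 3 and 4, as the values below show. The low-GC promoter peaks took 4.89% ± 0.329 (SD, n = 3) of all counts in Naive, 5.42% ± 0.136 (n = 3) in N+P C1, 5.42% ± 0.135 (n = 3) in N+P C5 and 5.06% ± 0.495 (n = 4) in Sensitized libraries. The S+P libraries held 4.85% ± 0.138 (C4), 4.70% ± 0.082 (C5) and 4.74% ± 0.206 (C7) (SD, n = 4 each). Promoter peaks of 7 of 8 CD8 T cell marker genes were present, with summed normalized counts of 3340 to 4910 per library. The marker genes of B cells (7), myeloid cells (7), NK cells (2) and erythroid cells or platelets (5) had no promoter peak. Of 3 markers of CD4 and regulatory T cells, Foxp3 had a promoter peak, with summed normalized counts of 643 to 885.

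The sequences below show what these promoters look like. They are the 150 bases before an annotated start of 9 genes on which the results turn. All are read 5′ to 3′ on the strand of the gene from GRCm39. For each gene the start nearest to the peak midpoint was taken whose window overlapped no annotated exon and lay mostly inside the peak. Each of the 9 windows lies wholly inside its peak. Capitals mark matches to the 10 motifs counted later, on either strand.

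Ifng: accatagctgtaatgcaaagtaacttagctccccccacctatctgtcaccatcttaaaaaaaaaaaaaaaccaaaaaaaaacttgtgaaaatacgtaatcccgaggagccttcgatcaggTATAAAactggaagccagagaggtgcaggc
Casp4: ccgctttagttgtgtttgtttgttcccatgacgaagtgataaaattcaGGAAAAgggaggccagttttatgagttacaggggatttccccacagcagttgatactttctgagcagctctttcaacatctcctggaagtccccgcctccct
Osbpl3: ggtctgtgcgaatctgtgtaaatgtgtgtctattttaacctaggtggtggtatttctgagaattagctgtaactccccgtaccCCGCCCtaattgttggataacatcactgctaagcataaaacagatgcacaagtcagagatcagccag
Havcr2: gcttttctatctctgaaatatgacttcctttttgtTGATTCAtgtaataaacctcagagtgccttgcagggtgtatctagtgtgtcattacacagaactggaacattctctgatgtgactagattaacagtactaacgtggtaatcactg
Nfil3: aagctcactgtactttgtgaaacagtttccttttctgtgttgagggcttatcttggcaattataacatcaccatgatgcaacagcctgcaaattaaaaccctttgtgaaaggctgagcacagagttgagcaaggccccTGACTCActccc
Slamf7: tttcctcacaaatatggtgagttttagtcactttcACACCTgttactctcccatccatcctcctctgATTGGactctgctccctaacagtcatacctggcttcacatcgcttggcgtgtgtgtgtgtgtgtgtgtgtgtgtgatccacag
Il12rb2: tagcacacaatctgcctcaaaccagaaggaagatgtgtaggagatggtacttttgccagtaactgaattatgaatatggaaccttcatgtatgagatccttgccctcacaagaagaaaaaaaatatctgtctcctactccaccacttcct
Klrd1: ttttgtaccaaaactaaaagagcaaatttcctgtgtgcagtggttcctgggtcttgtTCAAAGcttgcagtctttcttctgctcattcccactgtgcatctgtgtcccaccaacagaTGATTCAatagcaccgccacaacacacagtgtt
Zfp456: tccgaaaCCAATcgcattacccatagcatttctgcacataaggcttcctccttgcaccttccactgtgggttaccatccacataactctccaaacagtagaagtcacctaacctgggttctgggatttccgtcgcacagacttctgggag

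The windows lie at chr10:118276801-118276950 (plus strand, Ifng), chr9:5308678-5308827 (plus strand, Casp4), chr6:50371236-50371385 (minus strand, Osbpl3), chr11:46345523-46345672 (plus strand, Havcr2) and chr13:53130861-53131010 (minus strand, Nfil3). The others are chr1:171480604-171480753 (minus strand, Slamf7), chr6:67316679-67316828 (minus strand, Il12rb2), chr6:129568527-129568676 (plus strand, Klrd1) and chr13:67523947-67524096 (minus strand, Zfp456). The Ifng window held a TATA box from 30 to 25 bases before the start. AP-1 strings stood from 115 to 109 bases before the start of Havcr2, from 33 to 27 before Klrd1 and from 12 to 6 before Nfil3. Casp4 held an NFAT core from 102 to 97 bases before its start, Osbpl3 an SP/KLF box on the opposite strand from 67 to 62, and Zfp456 a CCAAT box from 143 to 139. Slamf7 held a T-box string from 115 to 110 and a CCAAT box from 83 to 79 bases before its start, both on the opposite strand, and Klrd1 also a TCF/LEF core on the opposite strand from 93 to 88. The window of Il12rb2 held none of the motifs and no CpG, and that of Nfil3 also had no CpG. The other 7 windows had 1 to 4 CpG.

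By the rule that chose them, low-GC promoter peaks had a low median GC content, 47.6%, against 59.9% in other promoter peaks. Away from promoters it was 45.9% in the peaks under 50% GC and 53.1% in the others. The median ratio of observed to expected CpG was 0.446 in low-GC promoter peaks and 0.854 in other promoter peaks, and 0.251 and 0.338 in those peaks away from promoters. Their median length of 1183 bp was close to that of other promoter peaks (1116 bp). A start site lay inside 500 of the 558 peaks (89.6%), against 97.9% of other promoter peaks. The start nearest to the peak lay more than 1000 bp inside the outermost start of its gene for 178 peaks (31.9%), against 14.7% of other promoter peaks, so internal promoters were common. By midpoint, 232 peaks lay in an exon, 221 in an intron and 105 outside annotated genes. The 558 peaks carried 534 gene symbols, and the gene of 103 peaks also had a promoter peak of 50% GC or more. Chromosome 13 held 62 of the 558 (11.1%), against 3.82% of other promoter peaks, and 23 of these 62 belonged to Zfp-named zinc-finger genes.

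All 7 group lists of the study's peaks held 191 of the 558 (34.2%), against 35% of other promoter peaks and 9% of low-GC peaks elsewhere. The S+P C5 list held 84.4% of them and 92.1% of other promoter peaks, and the S+P C4 list 38.4% and 37.4%, while the lists of the other groups held from 69.7% (Naive) to 77.6% (Sensitized) of them. Motif content differed from other promoters. In the 300 bp around the midpoint, on both strands, the TATA box TATAAA stood in 11.3% of low-GC promoter peaks and 2.7% of other promoter peaks, the RUNX core TGTGGT in 23.8% and 11%, and the AP-1 site TGANTCA in 11.8% and 3.44%. The TCF/LEF core CTTTGA stood in 20.3% and 8.34%, the T-box string AGGTGT in 15.4% and 9.35%, and the NFAT core GGAAAA in 24.7% and 14.8%. Of the ETS sites, CAGGAAG stood in 21% and 12% and CCGGAAG in 12.4% and 19.3%. The CCAAT box was about as frequent in both (35.3% and 32%), and the SP/KLF box GGGCGG was much rarer in low-GC promoter peaks (23.8% and 69.7%). Of these strings 7 were more frequent still in low-GC peaks away from promoters, with TATAAA in 15.6%, TGTGGT in 44.9%, TGANTCA in 16.9%, CTTTGA in 29.7%, AGGTGT in 21.3%, GGAAAA in 26.7% and CAGGAAG in 26.3%, while CCAAT (29.1%), GGGCGG (7.46%) and CCGGAAG (3.12%) were less frequent there. The part of base composition in these shares was not tested, and the ETS and NFAT strings can share bases, so they describe these sequences and say nothing of binding. Over all promoters, the 150 bases before the start held TATAAA in 4.84% of low-GC and 2.40% of other promoter peaks, and GGGCGG in 20.4% and 54.5%.

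**Figure D1:**
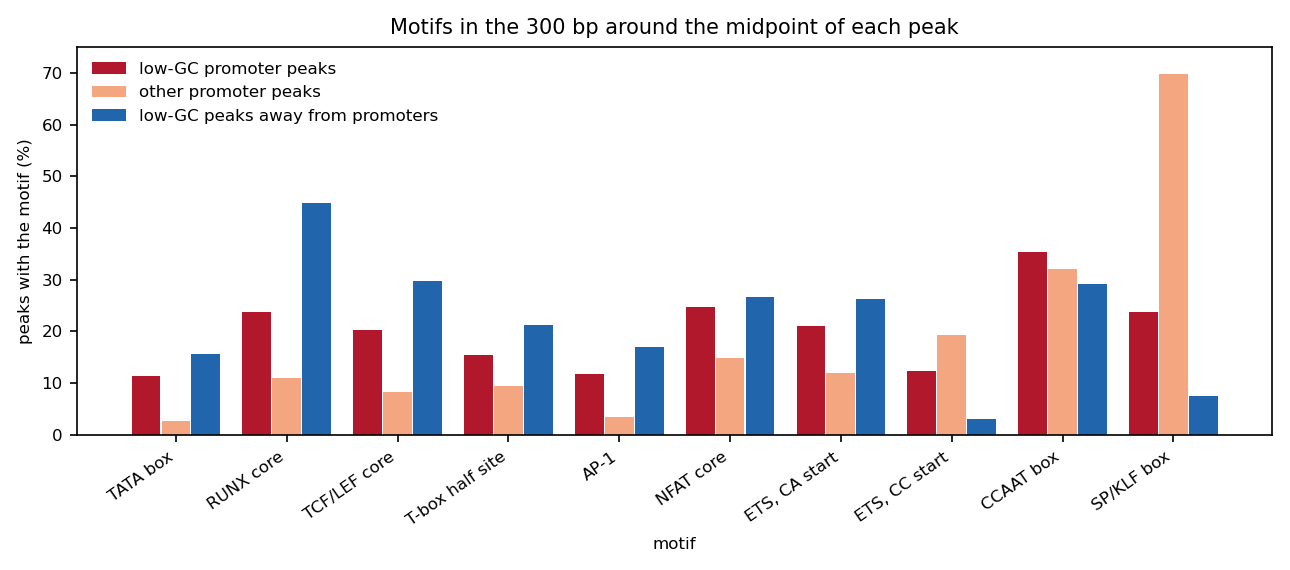
Share of peaks (vertical axis, percent) with each of 10 motifs (horizontal axis) in the 300 bp around the peak midpoint, for low-GC promoter peaks, other promoter peaks and low-GC peaks away from promoters. The SP/KLF box stood in 69.7% of other promoter peaks and 23.8% of low-GC promoter peaks, while the TATA box, RUNX, TCF/LEF, T-box, AP-1 and NFAT strings were more frequent in low-GC promoter peaks than in other promoter peaks.

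Low-GC promoters were called more often than other promoters in 8 of the 9 comparisons, the exception being N+P C5 vs. Naive, where neither had a call. Calls were made with DESeq2 over all peaks. A peak opened where its log2 fold change was above 0.9 and closed where it was below -0.9, with the adjusted p under 0.1 in both cases. The sizes of openings and closings given below are log2 fold changes ± their standard errors. The contrast of S+P C5 with N+P C5 compares the same PD1+CD73+ gate with and without an earlier graft. There, 45 low-GC promoter peaks opened and 31 closed (13.6% of 558). In that comparison 17.2% of all peaks were called (10.3% opening and 6.97% closing), 2.56% of other promoter peaks and 41.9% of low-GC peaks away from promoters. In Sensitized vs. Naive, 35 opened and 5 closed (7.17%), against 8.62% of all peaks (7.22% opening and 1.4% closing) and 0.675% of other promoter peaks. The closings were 0 without Sensitized replicate 2, 1 without Sensitized replicate 1, 2 without Naive replicate 1 or 2, 3 without Naive replicate 3, and 9 without Sensitized replicate 3 or 4. In S+P C7 vs. Sensitized, 16 opened and 26 closed (7.53%), against 11.9% of all peaks (3.84% opening and 8.03% closing) and 1.69% of other promoter peaks. There the openings were 27 without Sensitized replicate 2 and 10 without Sensitized replicate 3. The shares of low-GC promoter peaks were thus near or below those of all peaks and above those of other promoters. In all, 110 of the 558 were called in at least 1 of 9 comparisons, 54 of them opening and 61 closing in at least 1, with 5 in both counts, and 448 were called in none.

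Among promoters the share called was higher under 50% GC than above it. For S+P C5 vs. N+P C5 it was 21.3% of promoter peaks under 45% GC, 11.8% from 45 to 50%, 3.33% from 50 to 55% and 2.24% at 65% or more. In Sensitized vs. Naive it was 9.26%, 6.67%, 1.11% and 0.649% in the same bins, and in S+P C7 vs. Sensitized 13%, 6.22%, 2.15% and 1.95%. Among peaks away from promoters 46% were called under 45% GC and 3.75% at 65% or more for S+P C5 vs. N+P C5, and 25% and none of 80 in Sensitized vs. Naive. Beside the limit, the peaks of Nup35, 1110004F10Rik, Ap3m2 and Gemin2 stood just under 50% GC (49.96% to 49.98%) and those of Dkc1, Gm15446, Rps23 and Urod at 50%, and none of the 8 was called in any comparison.

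**Figure D2:**
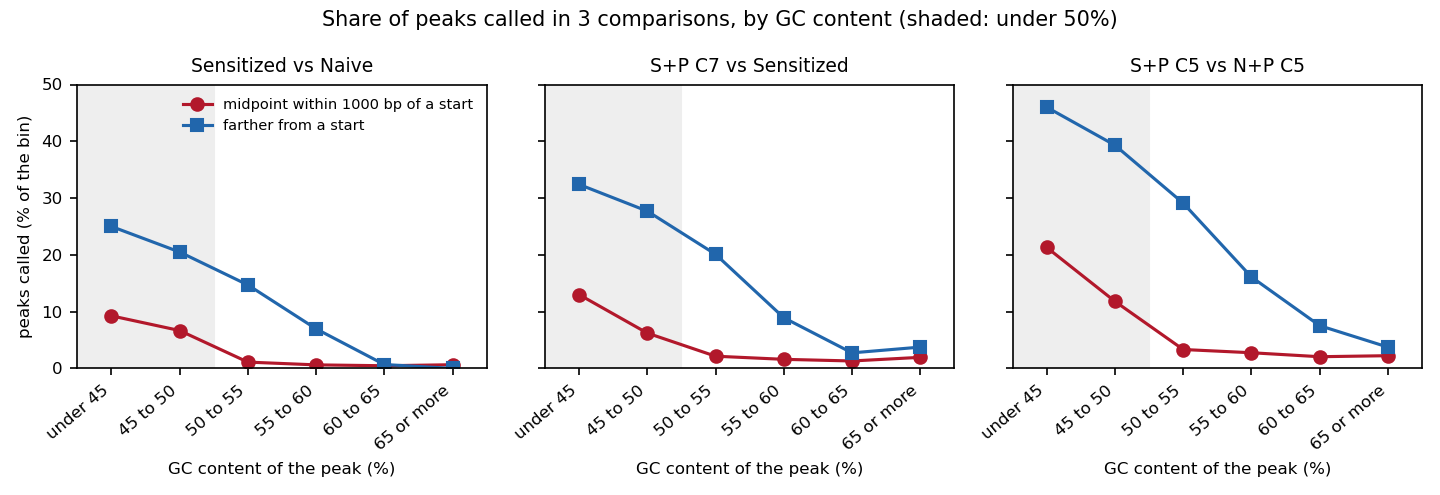
Share of peaks called (vertical axis, percent of the bin) by the GC content of the peak (horizontal axis, percent) in 3 comparisons, for peaks with the midpoint within 1000 bp of a protein-coding start (circles) and farther away (squares). The shaded bins are under 50% GC. For S+P C5 vs. N+P C5 the share among promoter peaks fell from 21.3% under 45% GC to 3.33% from 50 to 55%.

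The libraries themselves differed along GC content, which bears on peaks chosen by GC. The slope of a library's log2 ratio to the mean library against GC, over promoter peaks, ranged from -0.139 to -0.024 per 10 percentage points in N+P C5 and from 0.034 to 0.075 in S+P C5. It ranged from -0.146 to 0.127 in Sensitized libraries, with replicate 1 as the highest, and from -0.084 to 0.068 in Naive libraries, with replicate 3 as the lowest. The median log2 fold change of low-GC promoter peaks for S+P C5 vs. N+P C5 was -0.26, against 0.01 in other promoter peaks. With a loess offset on GC for each library, 36 opened and 68 closed for S+P C5 vs. N+P C5, 30 opened and 11 closed in Sensitized vs. Naive, and 26 opened and 21 closed in S+P C7 vs. Sensitized. With a loess offset on abundance, 33 opened and 35 closed for S+P C5 vs. N+P C5, and 23 opened and 8 closed in Sensitized vs. Naive.

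Effector genes stood among the promoters that opened in Sensitized vs. Naive. Of 27 cytotoxic and cytokine genes in the list examined, 8 had a low-GC promoter peak and 6 of these opened in Sensitized vs. Naive, where 7.22% of all peaks opened: Gzmk, Ifng, Ccl3, Ccl5, Xcl1 and Serpinb6b. The median log2 fold change over the 8 was 1.76, against 0.04 over all low-GC promoter peaks. The same 6 opened for S+P C5 vs. N+P C5, which shares no library with that comparison, with a median of 2.16 over the 8. The peaks of Il16 and Serpinb9 were called in no comparison.

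Gzmk encodes a granule protease of cytotoxic cells, and its peak (chr13:113317185-113317919, 735 bp, 43.3% GC) lies at an internal start. The Gzmk normalized count was 4.13, 3.93 and 5.05 in the Naive, 2.01, 12.3 and 4.81 in the N+P C5, 326, 415, 80.8 and 117 in the Sensitized and 262, 556, 422 and 279.9 in the S+P C5 libraries. Every Sensitized and S+P library was above every Naive and N+P library, and Sensitized replicates 3 and 4 were the lowest of their group. The log2 fold change was 5.72 ± 0.59 (SE, adjusted p = 4.86e-19) in Sensitized vs. Naive and 5.96 ± 0.58 (SE, adjusted p = 6.93e-22) for S+P C5 vs. N+P C5. Both sizes fell with an abundance offset, to 3.74 and 3.33. Ifng encodes interferon gamma, and its peak (chr10:118276462-118277337, 876 bp) covers the TATA box shown above. The Ifng normalized count was 123, 114 and 186 in Naive, 617, 649.7, 248 and 258 in Sensitized, 582, 736, 636 and 643 (C5) and 659, 722, 683 and 739 (C7) in the S+P libraries. The Naive and Sensitized ranges did not overlap, and the 8 libraries of S+P C5 or S+P C7 lay closer together than the 4 Sensitized libraries. For Ifng the log2 fold change was 1.65 ± 0.32 (SE, adjusted p = 5.19e-06) in Sensitized vs. Naive and 2.24 ± 0.32 (SE, adjusted p = 5.71e-11) for S+P C5 vs. N+P C5.

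The chemokine genes Ccl3, Ccl5 and Xcl1 followed the same course. At Ccl3 the normalized count was 44.1, 51.1 and 43.5 in Naive, 459, 284, 82.6 and 116 in Sensitized and 506, 671, 747 and 629 in S+P C7 libraries, and every S+P C7 library was above every Sensitized library. Its log2 fold change was 2.35 ± 0.44 (SE, adjusted p = 2.08e-06) in Sensitized vs. Naive, 3.52 ± 0.45 (SE, adjusted p = 2.06e-13) for S+P C5 vs. N+P C5 and 1.44 ± 0.39 (SE, adjusted p = 0.00115) in S+P C7 vs. Sensitized. Ccl5 opened by 1.87 ± 0.32, 2.27 ± 0.32 and 0.99 ± 0.29 in these comparisons, with adjusted p values of 1.44e-07, 2.86e-11 and 0.00253. The change of Ccl5 in S+P C7 vs. Sensitized fell to 0.80 and 0.78, under the fold limit, without Sensitized replicate 3 or 4. Xcl1 opened by 2.11 ± 0.34 in Sensitized vs. Naive (adjusted p = 2.41e-08) and by 2.08 ± 0.34 for S+P C5 vs. N+P C5 (adjusted p = 1.49e-08). Serpinb6b, a serpin of the family that inhibits granule proteases, stood at the fold limit in Sensitized vs. Naive, with a log2 fold change of 0.90 ± 0.20 (SE, adjusted p = 1.36e-04), and lost its call in 8 alternatives, among them the GC offset and leaving out Naive replicate 1 or 2 or Sensitized replicate 1 or 2. For S+P C5 vs. N+P C5 its value was 1.08 ± 0.20 (SE, adjusted p = 1.01e-06).

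The receptor genes Klrc1 and Havcr2 shared this course. Of the others of their lists, described below, Slamf7 and Tnfrsf9 had a peak that opened, and the rest closed or were not called. Klrc1 encodes NKG2A, the inhibitory partner of CD94. The Klrc1 normalized count was 31.7, 20.6 and 22.1 in Naive, 18.1, 38.4 and 25.2 in N+P C5, 304, 252, 76.8 and 112 in Sensitized and 272, 361, 354 and 248 in S+P C5 libraries, and the grafted groups did not overlap the ungrafted ones. Klrc1 had a log2 fold change of 2.92 ± 0.42 (SE, adjusted p = 3.44e-10) in Sensitized vs. Naive and 3.52 ± 0.43 (SE, adjusted p = 1.28e-14) for S+P C5 vs. N+P C5, and 1.61 and 1.86 with an abundance offset. Havcr2 encodes TIM-3, an inhibitory receptor of exhausted and effector T cells. Havcr2 had normalized counts of 23.4, 7.87 and 7.57 in Naive, 180.5, 94.9, 39.0 and 35.8 in Sensitized, 103, 144, 123 and 170.2 (C5) and 189.7, 299.6, 272 and 306 (C7) in the S+P libraries. Every S+P C7 library was above every Sensitized library, and Sensitized replicates 3 and 4 were little above the highest Naive library. For Havcr2 the log2 fold change was 2.82 ± 0.55 (SE, adjusted p = 8.08e-06) in Sensitized vs. Naive, 4.14 ± 0.60 (SE, adjusted p = 1.18e-10) for S+P C5 vs. N+P C5 and 1.61 ± 0.47 (SE, adjusted p = 0.00257) in S+P C7 vs. Sensitized. With an abundance offset these calls were lost, at 0.34, 0.69 and 0.21.

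Casp4, an inflammatory caspase, and Osbpl3, an oxysterol-binding protein, had, with Gzmk, the smallest adjusted p values of all 35 openings in Sensitized vs. Naive. The normalized count of Casp4 was 38.6, 46.2 and 75.1 in Naive, 87.5, 97.3 and 86.6 in N+P C5 and 444, 646, 259 and 281 in Sensitized libraries, without overlap. Its log2 fold change was 2.90 ± 0.29 (SE, adjusted p = 1.86e-20) in Sensitized vs. Naive and 2.27 ± 0.28 (SE, adjusted p = 7.35e-14) for S+P C5 vs. N+P C5.

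The counts of Osbpl3 were also higher in N+P C5 than in Naive libraries. Osbpl3 had normalized counts of 19.3, 21.6 and 21.4 in Naive, 23.2, 28.0 and 37.7 in N+P C1, 74.5, 75.4 and 93.8 in N+P C5, 672, 544, 117 and 196 in Sensitized and 732, 1119, 772 and 790.4 in S+P C5 libraries. The 3 N+P C5 libraries were above all Naive and N+P C1 libraries and below all Sensitized libraries. For Osbpl3 the log2 fold change in N+P C5 vs. Naive was 1.96 ± 0.47 (SE), with an unadjusted p of 3.38e-05 and no adjusted p, because DESeq2's filter on low mean counts left it out. With that filter switched off the adjusted p was 0.0241. Osbpl3 opened by 4.20 ± 0.44 in Sensitized vs. Naive (adjusted p = 7.79e-19) and by 3.39 ± 0.41 for S+P C5 vs. N+P C5 (adjusted p = 1.13e-14). Its further opening in S+P C5 vs. S+P C4 (0.92 ± 0.37, adjusted p = 0.0985) was lost in 13 alternatives, with 0.68 without S+P C4 replicate 1 and 0.77 without S+P C5 replicate 2.

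N+P C5 vs. Naive sets PD1+CD73+ cells after a pregnancy without a graft against undivided Naive cells, so gate and pregnancy cannot be told apart. DESeq2 called 0 of 558 low-GC promoter peaks there, where 0.0262% of all peaks with an adjusted p were called. The filter on low mean counts left 337 of the 558 without an adjusted p. At an unadjusted p under 0.05 there were 154 of 558, against 2361 of all 13527 peaks, and at an adjusted p under 0.1 with any fold 35 of the 221 that had one, against 301 of 3824, and edgeR's quasi-likelihood test called 0. Leaving out Naive replicate 3 gave 6 opening, named after these values were seen: Osbpl3, Casp4, Casp1, Samd3, Gm3604 and Gm5141, with log2 fold changes from 0.99 to 1.98. The median log2 fold change over the 8 cytotoxic and cytokine members was 0.154, against 0.155 over all low-GC promoter peaks.

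Calls of Sensitized vs. Naive can be set beside those for S+P C5 vs. N+P C5. The second comparison shares no library with the first. It opened 31 of the 35 promoters that opened in Sensitized vs. Naive (88.6%), and these 31 were 68.9% of its own 45. Over all peaks the shares were much the same, since it opened 894 of 977 (91.5%), which were 64.3% of its 1390. It closed 4 of the 5 that had closed (80%), which were 12.9% of its own 31 (82% and 16.4% over all peaks), and none of the 35 opened promoters closed. The log2 fold changes of the called openings ranged from 0.90 to 5.72 (median 1.87) in Sensitized vs. Naive and from 0.92 to 5.96 (median 1.96) for S+P C5 vs. N+P C5. The closings ranged from -1.32 to -0.94 and from -2.28 to -0.91.

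Some promoters were highest in S+P C5 cells, the PD1+CD73+ cells of sensitized mice after pregnancy. Of these, Nfil3 and the outermost start of Slamf7 also opened in Sensitized vs. Naive. In S+P C5 vs. Sensitized 7 low-GC promoter peaks opened and 7 closed (2.51%, against 6.74% of all peaks, with 3.08% opening and 3.67% closing, and 0.506% of other promoter peaks). Without Sensitized replicate 1 there were 17 and 16, without Sensitized replicate 2 there were 11 and 12, and without S+P C5 replicate 1 there were 8 and 14. The closings fell to 3 without Sensitized replicate 4 (with 9 openings) and to 4 without Sensitized replicate 3 or S+P C5 replicate 2 (with 7 and 6). In S+P C5 vs. S+P C4, between gates of the same exposure, 10 opened and 4 closed (2.51%, against 5.12% of all peaks, with 3.12% opening and 2% closing, and 0.295% of other promoter peaks), and 6 and 2 without S+P C5 replicate 2. The closings rose to 7 without S+P C4 replicate 3 (with 10 openings) or S+P C5 replicate 1 (with 9).

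Nfil3, a basic leucine zipper repressor induced by cytokines, has its low-GC peak (chr13:53130296-53131109, 814 bp) at an internal start. Nfil3 had normalized counts of 30.2, 23.3 and 58.9 in N+P C5, 139, 100.4, 41.3 and 73.8 in Sensitized, 71.5, 62.3, 112 and 66.5 (C4), 403, 540.3, 425 and 329 (C5) and 301, 363, 222 and 153 (C7) in the S+P libraries. Every S+P C5 library was above every N+P C5, Sensitized and S+P C4 library. Nfil3 had a log2 fold change of 2.26 ± 0.34 (SE, adjusted p = 2.86e-09) in S+P C5 vs. Sensitized and 2.44 ± 0.35 (SE, adjusted p = 6.22e-10) in S+P C5 vs. S+P C4. For S+P C5 vs. N+P C5 it was 3.50 ± 0.39 (SE, adjusted p = 2.26e-17). These stayed called with an abundance offset, at 1.35, 1.75 and 1.19. Nfil3 also opened in Sensitized vs. Naive, by 2.30 ± 0.41 (SE, adjusted p = 6.06e-07), a call lost with an abundance offset at 0.61. Slamf7 encodes a receptor of the SLAM family on activated lymphocytes and has a low-GC peak at its outermost start (chr1:171480309-171480806, 498 bp) and another at an inner start. At the outermost start the normalized count was 8.05, 8.22 and 4.81 in N+P C5, 69.8, 40.8, 14.3 and 11.4 in Sensitized, 47.6, 37.6, 69.3 and 22.8 in the S+P C4 libraries and 299, 441, 225 and 209.7 in those of S+P C5. Each S+P C5 library was above all libraries of these other groups, and the N+P C5 and Naive libraries held at most 8.22. S+P C7 is not among these groups, and neither this peak nor that of Nfil3 was called in S+P C7 vs. S+P C5. At this start of Slamf7 the log2 fold change was 3.11 ± 0.49 (SE, adjusted p = 2.07e-08) in S+P C5 vs. Sensitized, 5.38 ± 0.62 (SE, adjusted p = 3.50e-16) for S+P C5 vs. N+P C5 and 2.49 ± 0.49 (SE, adjusted p = 4.71e-06) in S+P C7 vs. Sensitized. With an abundance offset these 3 calls were lost, at 0.57, 0.48 and 0.08. The same peak was called opening in Sensitized vs. Naive, by 2.94, and had -0.32 with that offset.

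Fam163a and Cxcr5 separated S+P C5 from S+P C7 as well. The normalized count of Fam163a (chr1:156033649-156034274, 626 bp, no CpG) was 57.7, 53.4, 51.0 and 51.5 in Sensitized, 102, 36.4, 18.4 and 19.6 (C4), 383, 389, 249 and 375 (C5) and 145, 155, 92.8 and 79.5 (C7) in the S+P libraries. All S+P C5 libraries were above all others, although replicate 3 was well below the other three. Fam163a had a log2 fold change of 2.71 ± 0.36 (SE, adjusted p = 1.53e-11) in S+P C5 vs. Sensitized, 3.14 ± 0.38 (SE, adjusted p = 1.90e-13) in S+P C5 vs. S+P C4 and -1.57 ± 0.36 (SE, adjusted p = 9.89e-04) in S+P C7 vs. S+P C5. With an abundance offset the change in S+P C5 vs. Sensitized was 1.25, that against S+P C4 was 2.07, and that against N+P C5 fell from 3.00 to 0.07. Cxcr5 encodes a chemokine receptor that guides cells to B cell follicles, and its peak (chr9:44437566-44438532, 967 bp) lies at an inner start. Its normalized count was 456, 412 and 267 in Naive, 265, 271 and 239 in N+P C5, 234, 189.9, 219 and 214 in Sensitized, 495, 667, 512 and 434 (C5) and 282, 369, 315 and 158 (C7) in the S+P libraries. S+P C5 was above N+P C5, Sensitized and S+P C7 without overlap, but its lowest library lay below the highest Naive library. The log2 fold change of Cxcr5 was 1.29 ± 0.26 (SE, adjusted p = 1.86e-05) in S+P C5 vs. Sensitized, 1.20 ± 0.26 (SE, adjusted p = 1.88e-04) in S+P C5 vs. S+P C4 and -0.91 ± 0.26 (SE, adjusted p = 0.0119) in S+P C7 vs. S+P C5, the last lost in 4 alternatives, with -0.71 without S+P C7 replicate 4 and -0.78 without S+P C5 replicate 2.

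**Figure D3:**
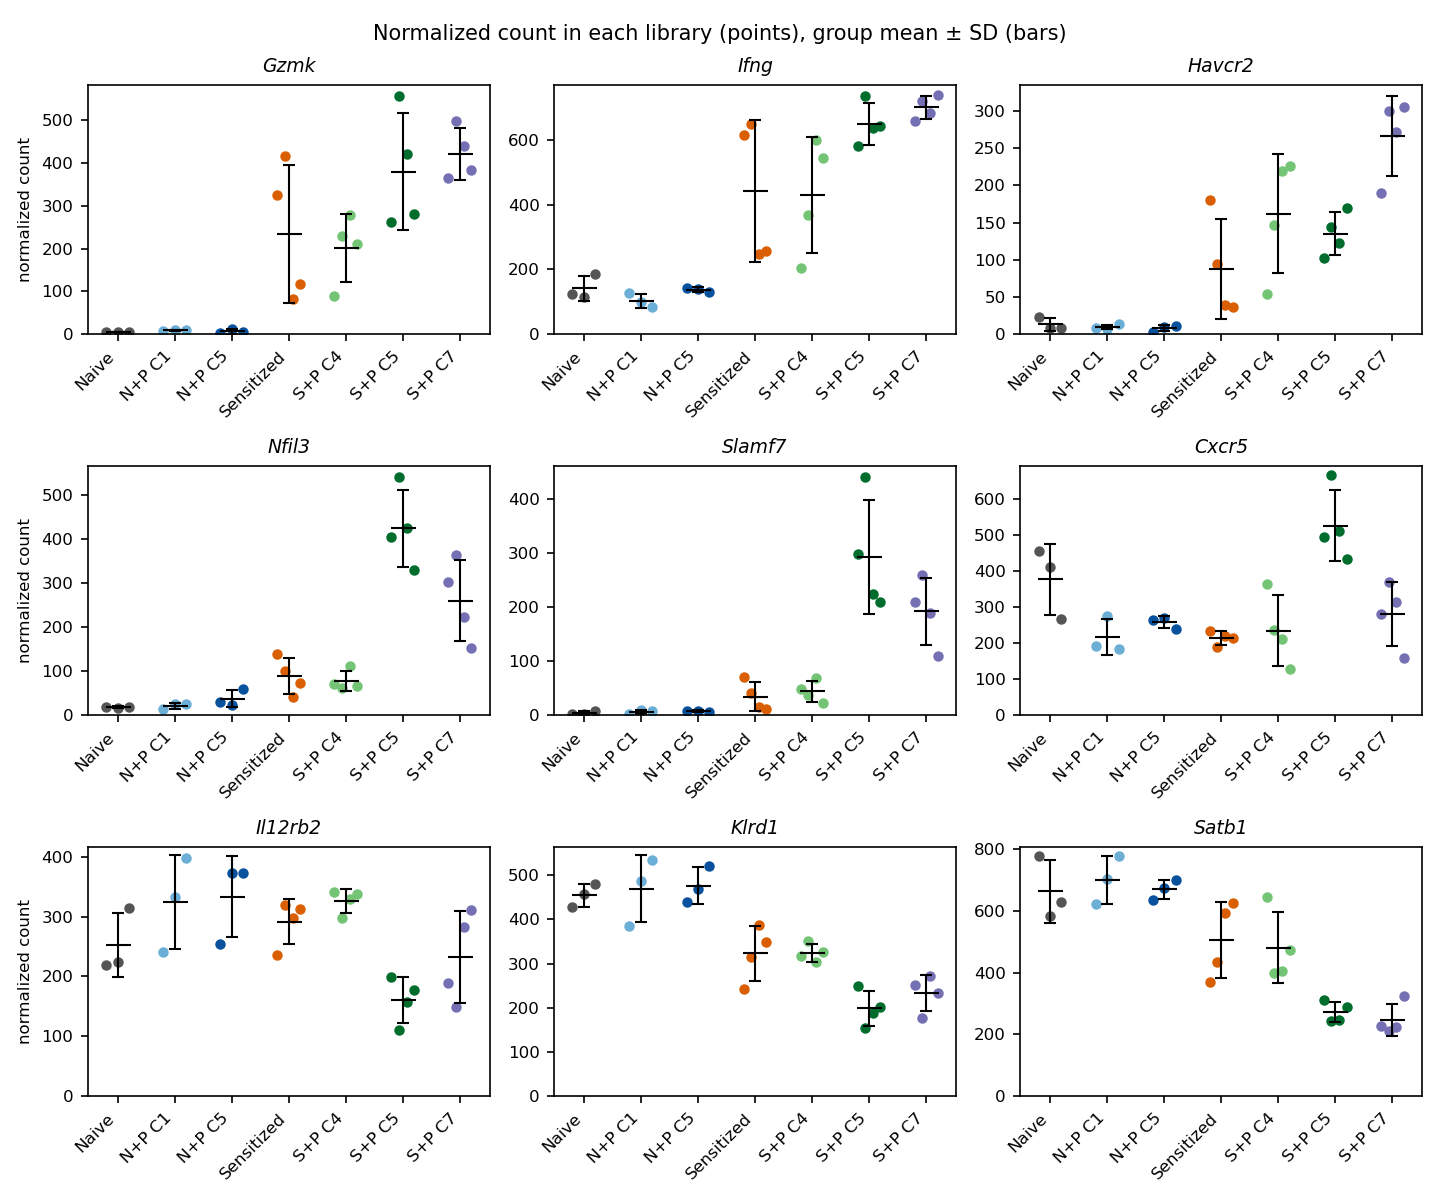
Normalized count (vertical axis, from 0) of 9 low-GC promoter peaks in each of 25 libraries by group (horizontal axis), with points for libraries and bars for the group mean ± SD. Slamf7 is the peak at the outermost start. Gzmk, Ifng and Havcr2 were higher in Sensitized and S+P groups, Nfil3, Slamf7 and Cxcr5 were highest in S+P C5, and Il12rb2, Klrd1 and Satb1 were lower in S+P C5 than in N+P C5.

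The olfactory receptor gene Or13c7b and the cilium-associated gene Cabcoco1 also had their highest counts in S+P C5. The normalized count of Or13c7b was 247 to 387 in S+P C5 and at most 229 in any other library, and that of Cabcoco1 was 899.5 to 1109.7 in S+P C5 and at most 875 in any other library. Or13c7b opened by 2.32 ± 0.39 in S+P C5 vs. S+P C4 (adjusted p = 2.51e-07) and by 1.41 ± 0.37 in S+P C5 vs. Sensitized (adjusted p = 0.00222, lost with an abundance offset at 0.67), and closed at -1.01 ± 0.38 in S+P C7 vs. S+P C5 (adjusted p = 0.0859), a call lost in 8 alternatives. Cabcoco1 opened by 0.91 ± 0.15 in S+P C5 vs. S+P C4 (adjusted p = 1.42e-07), near the fold limit and its only call, and lost this call in 5 alternatives, with 0.85 without S+P C4 replicate 3 and 0.86 without S+P C5 replicate 2. Olfactory receptor genes have near-identical copies, and only reads with a unique position were counted.

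S+P C7 cells carry PD1 without CD73. Of the S+P populations they had the most closings against Sensitized (26, against 7 in C5 and 1 in C4). Over all peaks the order was the same, with 8.03%, 3.67% and 0.296% closing. S+P C7 vs. S+P C5 compares both PD1+ gates after the same exposure. There 1 low-GC promoter peak opened and 7 closed (1.43%, against 2.38% of all peaks, with 0.266% opening and 2.11% closing, and 0.183% of other promoter peaks). The count was 2 and 16 without replicate 1, 0 and 5 without replicate 3 and 1 and 4 without replicate 4 of S+P C7, and 1 and 4 without S+P C5 replicate 1. With the replicate number as a block it was 3 and 9. The opening was Irag2, which encodes a membrane protein of the endoplasmic reticulum in lymphocytes, at an internal start (chr6:145061170-145061688, 519 bp). Its normalized count was 166, 152, 153 and 161 in Sensitized, 209, 225, 204 and 165 (C5) and 338, 388, 413 and 366 (C7) in the S+P libraries. The 4 S+P C7 libraries were above all Sensitized and S+P C5 libraries, and the Sensitized libraries were almost equal. Irag2 had a log2 fold change of 1.25 ± 0.16 (SE, adjusted p = 3.05e-13) in S+P C7 vs. Sensitized and 0.91 ± 0.16 (SE, adjusted p = 4.23e-06) in S+P C7 vs. S+P C5, the second under the fold limit if S+P C5 replicate 4 was left out (0.82), or replicate 3 (0.86) or 2 (0.89) of S+P C7.

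The largest closing in S+P C7 vs. Sensitized was that of Garin3, of a family of RAB2-binding proteins. The Garin3 normalized count was 525, 426 and 376 in Naive, 277, 321 and 328 in N+P C5, 69.8, 93.4, 279.8 and 266 in Sensitized, 123, 64.3, 25.2 and 56.7 (C5) and 54.4, 28.9, 18.2 and 22.9 (C7) in the S+P libraries. Sensitized replicates 1 and 2 were far below replicates 3 and 4, and all S+P C7 libraries were below all Sensitized libraries. For Garin3 the log2 fold change was -2.49 ± 0.44 (SE, adjusted p = 4.31e-07) in S+P C7 vs. Sensitized, -2.18 ± 0.46 (SE, adjusted p = 1.72e-05) for S+P C5 vs. N+P C5 and -1.32 ± 0.46 (SE, adjusted p = 0.0283) in Sensitized vs. Naive, the last lost without Naive replicate 1 (-1.18) or Sensitized replicate 2 (-1.11). Adipoq encodes the hormone adiponectin. Adipoq had normalized counts of 305, 428, 615 and 572 in Sensitized, 358, 252, 282 and 260.5 (C5) and 153, 106, 128 and 208 (C7) in the S+P libraries, and S+P C7 lay below both others without overlap. Adipoq had a log2 fold change of -1.67 ± 0.22 (SE, adjusted p = 3.45e-12) in S+P C7 vs. Sensitized and -0.94 ± 0.22 (SE, adjusted p = 0.00151) in S+P C7 vs. S+P C5, a call lost in 5 alternatives, with -0.74 under a GC offset.

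Other named closings in S+P C7 vs. Sensitized were Or10aa1, an olfactory receptor gene (log2 fold change -1.62 ± 0.18, adjusted p = 1.50e-17), Agbl1, of a family of carboxypeptidases (-1.70 ± 0.36, adjusted p = 2.74e-05), Hemgn, a nuclear protein of blood-forming cells (-1.14 ± 0.18, adjusted p = 1.52e-08), and Phldb2, which binds phosphoinositides (-1.45 ± 0.36, adjusted p = 3.24e-04). Agbl1 also closed in S+P C7 vs. S+P C5, at -1.36 ± 0.36 (adjusted p = 0.00736). Phldb2 also closed in S+P C5 vs. Sensitized, at -1.25 ± 0.35 (adjusted p = 0.00463). The normalized count of Phldb2 was 230.2, 314, 146 and 156 in Sensitized and 99.2, 152 and 94.6 in Naive libraries, so the Sensitized libraries were the high group, with some overlap. Cd101, an inhibitory receptor gene, closed at -1.54 ± 0.36 in S+P C7 vs. Sensitized (adjusted p = 1.50e-04) and at -1.36 ± 0.38 for S+P C5 vs. N+P C5 (adjusted p = 0.00139).

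In Sensitized vs. Naive the 5 closings, where 1.4% of all peaks closed, included Ankrd55, Garin3, Kcna2 and Zbtb38, of which the last 2 were named after their values were seen. Ankrd55, an ankyrin repeat protein, had normalized counts of 1117, 1175 and 891 in Naive and 385, 454, 704 and 666 in Sensitized libraries, which did not overlap. Its log2 fold change was -0.94 ± 0.29 (SE, adjusted p = 0.0121), under the fold limit without Sensitized replicate 1 (-0.80), Sensitized replicate 2 (-0.86) or Naive replicate 2 (-0.86). Kcna2, a potassium channel, and Zbtb38, a zinc-finger protein that binds methylated DNA, closed at -0.94 ± 0.40 (adjusted p = 0.0966) and -1.12 ± 0.47 (adjusted p = 0.0853), and lost their calls in 8 and 9 alternatives.

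Receptor and regulator genes with lower promoter accessibility in S+P C5 than in N+P C5 included Klrd1, Satb1, Il12rb2 and Card6. Klrd1 encodes CD94, which pairs with the product of Klrc1. Klrd1 had normalized counts of 427, 456 and 479.5 in Naive, 439.7, 469 and 521 in N+P C5, 242, 314, 388 and 349 in Sensitized and 249, 155, 189 and 202 in S+P C5 libraries. S+P C5 was below N+P C5 without overlap, and the lowest Sensitized library lay inside the S+P C5 range. The log2 fold change of Klrd1 for S+P C5 vs. N+P C5 was -1.24 ± 0.17 (SE, adjusted p = 1.92e-11), where that of Klrc1 was +3.52 ± 0.43, so the peaks at the starts of these partner genes moved in opposite directions. Satb1 encodes a chromatin organiser of T cells, and its low-GC peak (chr17:52120507-52121866, 1360 bp) lies at an inner start. Its normalized count was 637, 676 and 699.8 in N+P C5, 370.3, 436, 594 and 628 in Sensitized, 312, 243, 246 and 290.3 (C5) and 229, 211, 225 and 324 (C7) in the S+P libraries. All S+P C5 or S+P C7 libraries were below all Sensitized and N+P C5 libraries. Satb1 had a log2 fold change of -1.29 ± 0.19 (SE, adjusted p = 4.83e-10) for S+P C5 vs. N+P C5 and -1.03 ± 0.18 (SE, adjusted p = 3.06e-07) in S+P C7 vs. Sensitized, the latter -0.82 with a GC offset.

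Il12rb2 encodes the signalling chain of the interleukin 12 receptor. Its normalized count was 255, 373 and 373 in N+P C5, 236, 319, 297 and 312 in Sensitized, 340.3, 297, 329.6 and 338 (C4), 199, 110.2, 157 and 177 (C5) and 189.7, 148, 283 and 312 (C7) in the S+P libraries. S+P C5 was below S+P C4, Sensitized and N+P C5 without overlap, while S+P C7 overlapped both S+P C5 and Sensitized. For Il12rb2 the log2 fold change was -1.0 ± 0.22 (SE, adjusted p = 3.18e-04) in S+P C5 vs. S+P C4 and -1.03 ± 0.24 (SE, adjusted p = 9.55e-05) for S+P C5 vs. N+P C5, both under the fold limit, at -0.87 and -0.90, without S+P C5 replicate 2. Card6, a caspase recruitment domain protein, had a log2 fold change of -0.96 ± 0.17 (SE, adjusted p = 4.32e-07) for S+P C5 vs. N+P C5, with -0.88 without N+P C5 replicate 3 or S+P C5 replicate 2. Tnfrsf9, the costimulatory receptor 4-1BB, opened at its outermost start, which lies beside the start of Park7, by 1.39 ± 0.18 for S+P C5 vs. N+P C5 (adjusted p = 9.09e-13) and by 0.94 ± 0.17 in S+P C7 vs. Sensitized (adjusted p = 3.40e-07), the latter under the fold limit without Sensitized replicate 3 (0.83), Sensitized replicate 4 (0.86) or S+P C7 replicate 2 (0.86). Cd68, a lysosomal protein best known from macrophages, opened by 1.03 ± 0.20 for S+P C5 vs. N+P C5 (adjusted p = 2.95e-06), with 0.86 under a GC offset, 0.78 under an abundance offset and 0.89 without S+P C5 replicate 1. Of 14 myeloid genes listed it was the 1 with a low-GC promoter peak, and the defining markers of myeloid cells had no promoter peak at all.

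**Figure D4:**
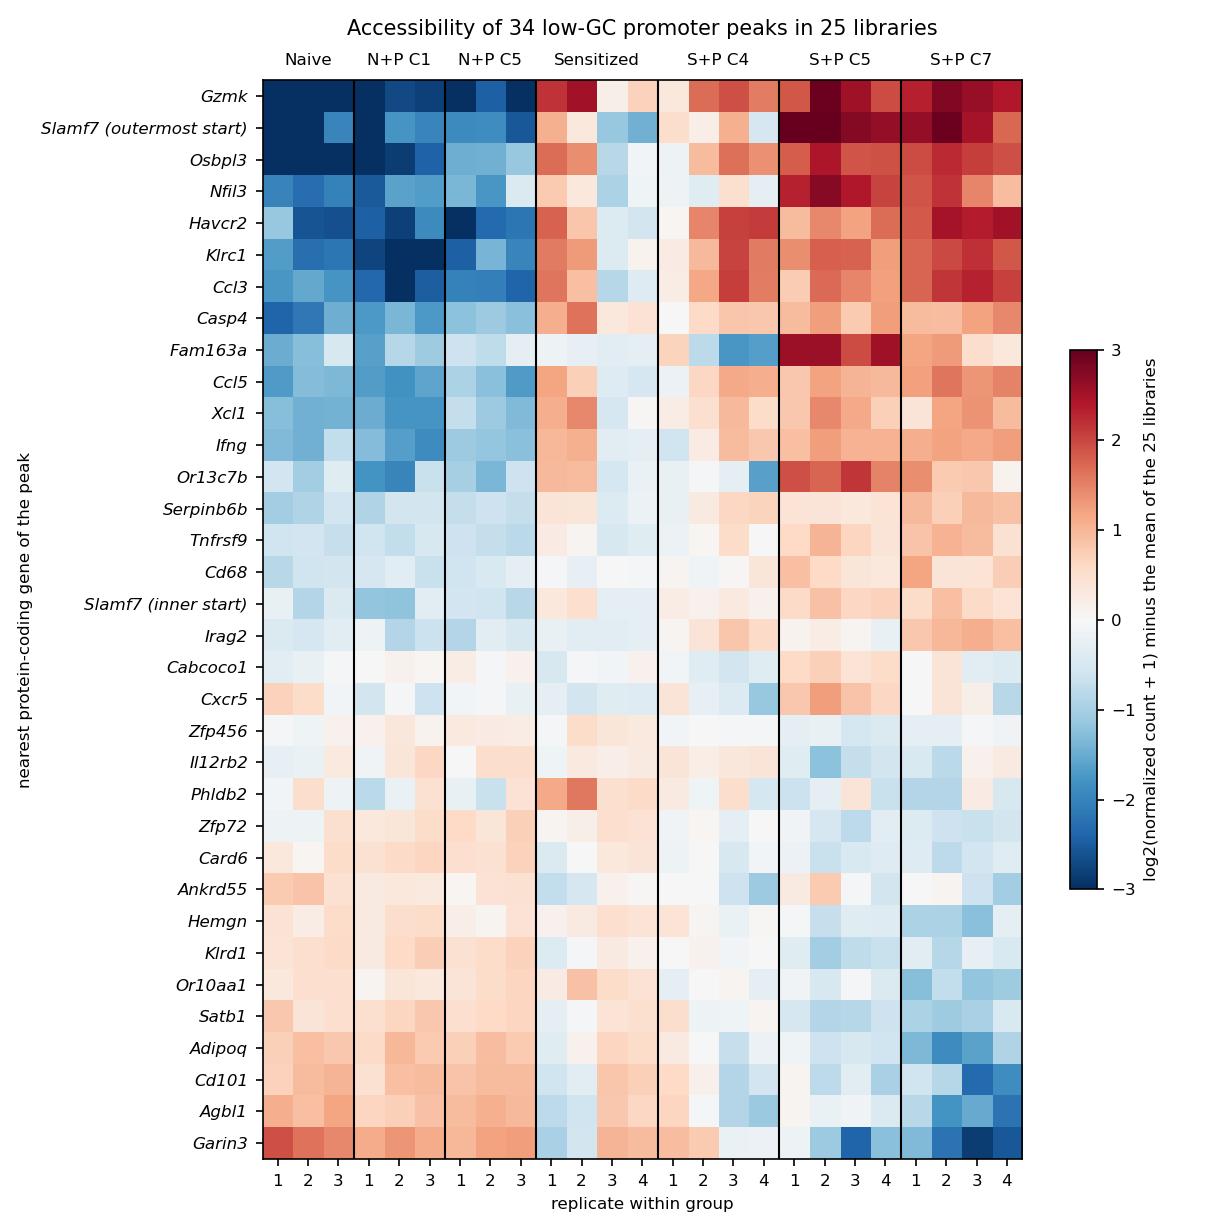
Accessibility of 34 low-GC promoter peaks (vertical axis, nearest protein-coding gene) in 25 libraries (horizontal axis, replicate within group), as log2 of the normalized count plus 1 minus the mean of the 25 libraries, with colours limited to -3 and 3. Peaks are ordered by the mean of S+P C5 or S+P C7 libraries minus the Naive mean. Sensitized replicates 1 and 2 were further from Naive than replicates 3 and 4 at Gzmk, Osbpl3 and Ifng, for example.

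The other gene lists are given by their counts, beside the 19.7% of the 558 low-GC promoter peaks, and 22% of all peaks, that were called in at least 1 of the 9 comparisons. Of 24 genes of the T cell receptor complex and CD8, 7 had a low-GC promoter peak (among them Cd3d and Ptprc) and 0 were called by DESeq2 in any comparison. Of 50 interferon-inducible and GTPase genes, 12 had a peak (10 peaks in all, since neighbouring Gbp genes share one) and 0 were called. The interferon-induced Ifit3b, which is not in that list and is named after its values were seen, opened by 1.08 ± 0.23 for S+P C5 vs. N+P C5 (adjusted p = 2.16e-05) and by 0.99 ± 0.21 in S+P C7 vs. Sensitized (adjusted p = 2.23e-05). Of 21 Ms4a, Ly6 and MHC genes, 2 had a peak and 0 were called. Of 31 inhibitory and costimulatory receptor genes, 10 had a peak and 3 were called at the peak nearest to a start (Havcr2, Cd101 and Slamf7), while those of Ctla4, Tigit, Icos, Cd28 and Btla were not. Of 31 chemokine receptor and homing genes, 7 had a peak and 2 were called (among them Cxcr5). Of 26 cytokine receptor genes, 4 had a peak and 1 was called (Il12rb2), and Il2ra, Il2rg and Il7r were not. Of 50 T cell transcription factor genes, 6 had a peak and 1 was called (Satb1), and of 23 NK-type receptor genes, 2 had a peak and both were called (Klrc1 and Klrd1). None of 10 B cell, 3 CD4 and regulatory T cell and 8 erythroid and platelet genes had a low-GC promoter peak.

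S+P C4 vs. Sensitized, which compares PD1- cells with the undivided Sensitized cells, had 2 opening and 1 closing low-GC promoter peaks (0.538%, against 0.858% of all peaks, with 0.562% opening and 0.296% closing, and 0 of the other promoter peaks). All 3 are named after their values were seen. Sfi1, a centrosome protein, had normalized counts of 21018, 6101, 6910.1 and 3804 in S+P C4 and 2943, 4277, 2835 and 3607 in Sensitized libraries, so S+P C4 replicate 1 stood far above all others. Its log2 fold change of 1.47 ± 0.43 (SE, adjusted p = 0.0318) fell to 0.71 without that library. Eps8, an actin-binding adaptor, opened by 1.61 ± 0.51 (adjusted p = 0.0496), a call also lost without S+P C4 replicate 3 or 4 or Sensitized replicate 3 or 4, and with the replicate block. Stim2, a calcium sensor of the endoplasmic reticulum, closed at -1.03 ± 0.36 (adjusted p = 0.0807). Without Sensitized replicate 2 the value of Stim2 was -0.51 (adjusted p = 0.488), and its call was also lost with the GC offset, by edgeR, with the replicate block, and without S+P C4 replicate 2 or 4. All 3 calls were lost when only the compared groups were fitted. Leaving out S+P C4 replicate 4 gave 1 opening and 0 closing, S+P C4 replicate 1 gave 5 and 4, and Sensitized replicate 1 gave 5 and 1.

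Some genes had both a low-GC and a GC-rich start. In Sensitized vs. Naive 9 of the 35 opened low-GC promoter peaks belonged to genes that also had a promoter peak of 50% GC or more, and none of those GC-rich peaks opened, where 0.591% of all other promoter peaks did. At an adjusted p under 0.1 with any fold, a GC-rich peak was higher for 2 of the 9, where 3.94% of other promoter peaks were. For S+P C5 vs. N+P C5 12 of 45 openings were of such genes, again with no GC-rich peak opened, where 1.2% of other promoter peaks did, and with any fold a GC-rich peak was higher for 5 of the 12 at that adjusted p, where 28.3% of other promoter peaks were. Of 9 closings with such a partner 1 had a GC-rich peak that also closed, where 1.36% of other promoter peaks did, and 4 had one that was lower at that adjusted p, where 29.1% were. With so few genes nothing is read from these counts. At the GC-rich promoter peak of Osbpl3 (chr6:50432221-50433431, 62.8% GC) the normalized count was 439.5 to 537 in Naive and 547 to 659 in Sensitized libraries. Its log2 fold change in Sensitized vs. Naive was 0.24 ± 0.12 (SE, adjusted p = 0.178), where the low-GC peak of Osbpl3 had 4.20. For S+P C5 vs. N+P C5 the GC-rich peak of Osbpl3 had 0.58 ± 0.12 (SE, adjusted p = 1.59e-05), under the fold limit, where the low-GC peak had 3.39. At the GC-rich promoter peak of Nfil3 (chr13:53134125-53136201, 64.4% GC) it was 0.33 ± 0.09 (SE, adjusted p = 0.00478) in S+P C5 vs. Sensitized, where the low-GC peak of Nfil3 had 2.26.

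Satb1 was the gene whose GC-rich start was also called closing for S+P C5 vs. N+P C5. Its GC-rich peak at the outermost start (chr17:52138384-52141435, 62.1% GC) closed at -1.14 ± 0.15 (SE, adjusted p = 4.89e-12) for S+P C5 vs. N+P C5, and a peak of 50.1% GC between them at -2.30 ± 0.43 (SE, adjusted p = 9.47e-07), against -1.29 at the low-GC peak of Satb1. At Il12rb2 a peak of 53.2% GC closed with the low-GC peak in S+P C5 vs. S+P C4, at -1.12 ± 0.29 (SE, adjusted p = 0.00323), but had -0.07 ± 0.32 (SE, adjusted p = 0.856) for S+P C5 vs. N+P C5. Low-GC starts of the same gene could differ as well. In S+P C5 vs. Sensitized the outermost start of Slamf7 had a log2 fold change of 3.11 and its inner start 0.59 ± 0.20 (SE, adjusted p = 0.0179). In S+P C7 vs. Sensitized 1 low-GC peak of Irag2 had 1.25 and another 0.35 ± 0.10 (SE, adjusted p = 0.00129), and the 3 low-GC peaks of Tnfrsf9 had 0.94, 0.76 and -0.06. The differences between starts were not themselves tested.

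Called members differed from the others in sequence, and in peak length, which like the calls was measured in these libraries. The 54 that opened in at least 1 comparison had a median length of 646.5 bp and a median CpG ratio of 0.255, the 61 that closed had 987 bp and 0.358, and the 448 called in none had 1288.5 bp and 0.501. An internal start more than 1000 bp from the outermost was found for 44.4% of the opened, 42.6% of the closed and 29.2% of the uncalled. AP-1 strings stood in 25.9% of the opened, 8.2% of the closed and 10.5% of the uncalled, T-box strings in 29.6%, 11.5% and 14.5%, and CAGGAAG in 38.9%, 29.5% and 17.6%. The SP/KLF box stood in 9.3% of the opened, 11.5% of the closed and 27% of the uncalled. These are descriptions of the called sets without a test.

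The interaction term asks whether the difference of PD1+CD73+ cells after pregnancy from undivided cells without it was unlike in sensitized (S+P C5 vs. Sensitized) and naive mice (N+P C5 vs. Naive). In it 7 low-GC promoter peaks were more open and 26 less open than that difference in naive mice would give (5.91%, against 5.97% of all peaks, with 3.04% more and 2.93% less open, 1.63% of other promoter peaks and 13.7% of low-GC peaks away from promoters). The count leaned on single libraries. It was 9 and 57 without Naive replicate 3, 14 and 61 without Sensitized replicate 1, 7 and 7 without Naive replicate 2, 6 and 7 without Sensitized replicate 4, 4 and 14 without Naive replicate 1, 7 and 14 without Sensitized replicate 3, and 6 and 12 without S+P C5 replicate 2. With a GC offset it was 9 and 18, and 9 and 17 with total counts as the scale, where the dispersion trend was local as well. With a local trend and the usual scale it was 8 and 27. The median over low-GC promoter peaks was -0.31, against 0.02 over other promoter peaks. Among the more open were Cxcr5 (log2 difference 1.84 ± 0.39, adjusted p = 6.80e-04), Fam163a (2.24 ± 0.58, adjusted p = 0.00463, lost with an abundance offset at 1.20) and Or13c7b (1.74 ± 0.59, adjusted p = 0.0283). Il12rb2 (-1.23 ± 0.34, adjusted p = 0.00809) was among the less open. The outermost start of Slamf7 had 2.44 ± 0.90 (SE, adjusted p = 0.0402), lost without Naive replicate 3 (1.51) or N+P C5 replicate 3 and with an abundance offset (0.80), and the inner start of Satb1 had -0.90 ± 0.27 (SE, adjusted p = 0.0139), lost in 11 alternatives.

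Zinc-finger genes of chromosome 13 gave 11 of the 26 less open peaks. Zfp-named genes, of which many encode KRAB repressors of transposable elements, gave 46 of the 558 peaks, 23 of them between positions 62614115 and 74539292 of chromosome 13. Of the 46, 44 had a log2 difference below 0 in the interaction, with a median of -0.755, against -0.257 over the other 512 low-GC promoter peaks, of which 363 were below 0. All 11 called were on chromosome 13, where the median was -0.896, against -0.561 for the 23 on other chromosomes. Both parts of the term contributed. In N+P C5 vs. Naive 44 of the 46 were higher (median 0.424), and in S+P C5 vs. Sensitized 45 were lower (median -0.339). The medians of the other 512 were 0.135 and -0.116. None of the 46 was called in either comparison. This set was picked after its values were seen. Many of these genes are near-identical copies, and reads that mapped to several places had been removed, so the counts rest on the parts that differ between copies.

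At Zfp456 the normalized count was 966, 917 and 1103 in Naive, 1218, 1186 and 1166 in N+P C5, 968, 1459, 1298 and 1219 in Sensitized and 832, 852, 694 and 739 in S+P C5 libraries. S+P C5 was below Sensitized and N+P C5 without overlap. The log2 difference of Zfp456 was -0.92 ± 0.16 (SE, adjusted p = 1.77e-05), between -0.82 and -1.02 in every alternative and under the fold limit in 8. Zfp72 had normalized counts of 259, 257 and 397 in Naive, 434, 370.1 and 471 in N+P C5, 302, 323, 406 and 389 in Sensitized and 266, 202, 166 and 228 in S+P C5 libraries, with Naive replicate 3 above the other Naive libraries. Its log2 difference was -1.18 ± 0.25 (SE, adjusted p = 4.93e-04).

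The summed normalized count of the 46 Zfp-named peaks was 46294.5 to 49645.6 in N+P C5, 46682.8 to 50386.5 in N+P C1, 28812.1 to 32945.4 (C5) and 27974 to 33375.3 (C7) in the S+P libraries. In Naive libraries it was 34749.1, 32804.9 and 44084.9, and in Sensitized libraries 26861.8, 39278.3, 43145.7 and 45893.7. Within these groups it was higher in Naive replicate 3 and Sensitized replicates 2, 3 and 4, with GC slopes from -0.146 to -0.076, and lowest in Sensitized replicate 1, whose slope was 0.127. With a GC offset 44 of the 46 were still below 0 in the interaction, with a median of -0.71 and 6 called less open. Without Sensitized replicate 1 there were 23 called and without Naive replicate 3 there were 26, while without Naive replicate 2 there was 1 and without Sensitized replicate 4 there were 3. Over all these fits the median lay between -0.93 and -0.66. The part of base composition in this result beyond the offset was not tested.

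**Figure D5:**
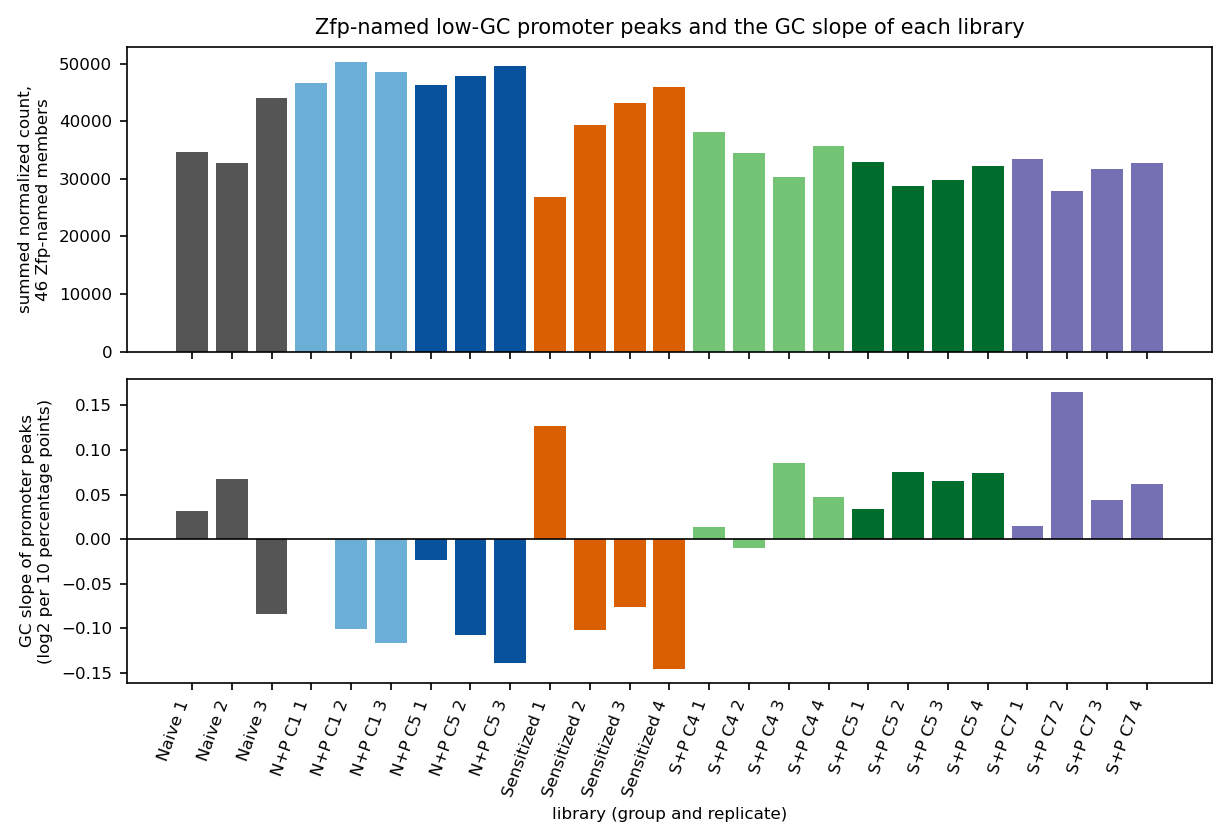
Summed normalized count of the 46 Zfp-named low-GC promoter peaks (upper panel, from 0) and the slope of each library's log2 ratio to the mean library against GC over promoter peaks (lower panel, log2 per 10 percentage points) in 25 libraries, coloured by group. The sum was highest in N+P libraries, from 46294.5 to 50386.5, and lowest in Sensitized replicate 1, at 26861.8, where the slope was 0.127.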

How the data were processed

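ATAC-seq libraries of 25 sorted cell samples in 7 groups were analysed from the raw read counts per peak that the authors deposited. Per the labels and the study's methods, the authors trimmed reads with cutadapt (3.4), aligned them to GRCm39 with Bowtie2 (2.2.9), removed reads without a unique position, removed duplicates with Picard (2.21.8), called peaks per sample with Genrich (0.6.1), kept those reproducible within a group with ChIP-R, merged the 7 group lists with bedtools (2.27.1) and counted reads with deepTools. In the group lists the authors deposited the score, the signal and the p-value of each pooled peak, of which only the presence of a peak was used here.

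Peaks were annotated with GENCODE vM39, and GC was taken from GRCm39 over the whole interval. DESeq2 (1.42.0, R 4.3.3) was fitted once to the 25 libraries with a term for group and a parametric dispersion trend. Wald p-values were adjusted over all peaks by Benjamini-Hochberg, and calls needed an adjusted p below 0.1 together with an unshrunken log2 fold change beyond 0.9 in either direction. The low-count filter removed 0 peaks. Every adjusted p in the text is from this fit unless another tool or setting is named. Normalized counts are counts divided by DESeq2 size factors and are not per length. Alternatives were edgeR (4.0.16) quasi-likelihood, total counts, loess offsets on GC or abundance, other promoter and GC limits, the replicate number as a block, and leaving out each library. Named were, per comparison, up to 3 opening and 3 closing peaks with the smallest adjusted p among called members whose groups did not overlap, the called members nearest to a start of genes in the lists, and the members nearest to the GC limit, a few of which are not reported here. Members and lists were chosen with earlier results of these data known. The fit was tested on simulated counts. No explanation was tested.

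Libraries held 2430890 to 25419715 counts (median 8197552), and their number limits precision. Libraries came from individual mice, and p-values measure the spread between these libraries. No pair of replicates agreed within sampling noise (lowest chi-square per degree of freedom 2.808). Libraries with the same number deviated together in the pairs N+P C1 with C5 (r from 0.1081 to 0.3999), S+P C5 with C7 (0.5224 to 0.7711) and S+P C4 with C5 (0.1032 to 0.572), so these numbers were taken to pair libraries. They were not taken so for Sensitized with S+P libraries (-0.7587 to 0.3633). This pairing comes from the data and not from the labels. For S+P C4 with C5, 2 of 4 libraries correlated best with their own number, and the highest r between unlike numbers was 0.4402. The p-values of the fit with a term for group alone do not use the pairing. Gene sequences of another genome build were not used here.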

Additional observations from a re-analysis of the deposited data

Results flagged for a closer look

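In 3 of 144 groups of 4 libraries, over 36 named peaks, a single library stood apart from the other three by Dixon's criterion, which chance alone meets in about 1 of 20 groups. At Fam163a the normalized count of S+P C5 replicate 3 was 248.8, below the other three. At Osbpl3 S+P C5 replicate 2 had 1118.9, above the others, and at the inner start of Satb1 S+P C7 replicate 4 had 324.2, above the others.

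For 8 named peaks the difference of PD1+CD73+ cells after pregnancy from undivided cells without it was unlike in sensitized and naive mice by the interaction term of DESeq2. The log2 difference was 2.24 for Fam163a, 2.44 for the outermost start of Slamf7, 1.74 for Or13c7b, 1.84 for Cxcr5, -1.23 for Il12rb2, -0.92 for Zfp456, -1.18 for Zfp72 and -0.90 for the inner start of Satb1. The cause of these values was not tested.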

How the results depend on the processing

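The percentage of low-GC promoter peaks called ranged, on leaving out each library in turn, from 5.38 to 8.42 in Sensitized vs. Naive, 0 to 1.08 in N+P C5 vs. Naive, 0.179 to 1.61 in S+P C4 vs. Sensitized, 1.79 to 5.91 in S+P C5 vs. Sensitized, 5.91 to 10.4 in S+P C7 vs. Sensitized, 11.6 to 14.9 in S+P C5 against N+P C5, 1.43 to 3.05 in S+P C5 vs. S+P C4, 0.896 to 3.23 in S+P C7 vs. S+P C5 and 2.33 to 13.4 in the interaction. A lone library was never left in an arm. DESeq2's dispersion trend was parametric as reported but local with total counts, with the replicate block for S+P populations vs. Sensitized, and without Naive replicate 3, S+P C5 replicate 1, S+P C4 replicate 3 or S+P C7 replicate 4, and for S+P C4 replicate 3 which trend was fitted turned on rounding error. A local trend with all 25 libraries, chosen after seeing the data, kept every such percentage within 1.5 times, with 8 more and 27 less open in the interaction. Limiting the members to GC under 45% (108 peaks) gave 5.56 in S+P C5 vs. Sensitized, 13 in S+P C7 vs. Sensitized, 21.3 in S+P C5 against N+P C5, 4.63 in S+P C5 vs. S+P C4, 2.78 in S+P C7 vs. S+P C5 and 0.926 in S+P C4 vs. Sensitized. Widening them to GC under 55% (1908 peaks) gave 2.88 in Sensitized vs. Naive and, in the order of those just named, 1.05, 3.72, 6.34, 1.05, 0.734 and 0.157, and 2.67 in the interaction. A start within 500 bp gave 0.835 in S+P C7 vs. S+P C5, and the GC of the central 300 bp gave 3 in the interaction. N+P C5 vs. Naive rose from 0 to 0.179 with either loess offset, total counts, the independent filter off, only the compared groups fitted, and the replicate block. S+P C4 vs. Sensitized was 0.896 with an abundance offset, and 0 with only the compared groups or the replicate block (with a local trend as well). With the replicate number as a block, which pairs libraries among the S+P populations, S+P C7 vs. S+P C5 had 12 calls in place of 8 and S+P C5 vs. S+P C4 had 16 in place of 14. S+P C5 vs. Sensitized, where the numbers do not pair libraries, had 14 opening and 3 closing.

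As a share of promoter counts, low-GC promoter peaks held 7.38% in Naive, 7.97% in N+P C1, 8.05% in N+P C5, 7.68% in Sensitized, and 7.3% (C4), 7.08% (C5) and 7.09% (C7) in S+P libraries. An abundance offset reversed Fam163a in S+P C7 vs. Sensitized (-0.23), and in Sensitized vs. Naive the outermost start of Slamf7 (-0.32) and Or13c7b (-0.50). Of 236 recomputed counts and shares 182 stayed close to the reported value, and of 98 calls of named peaks 55 held under every alternative. Of 1766 recomputed values of these calls 1625 kept their call, 138 lost it and 3 reversed. The causes were not tested.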
